A study of Mus musculus with 4 samples.

Results

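The 10 core circadian clock genes Clock, Arntl, Per1, Per2, Per3, Cry1, Cry2, Dbp, Tef and Nfil3 were followed through the open chromatin of mouse inguinal adipose tissue. They were taken by name, and every deposited peak (a stretch of open chromatin) that overlapped the gene body or the 2000 bases upstream of it in mm10 was assigned to its gene. This gave 86 of 189598 peaks, for 10 of 17196 protein-coding genes with at least 1 peak. The assay was snATAC-seq, in which a transposase cuts open chromatin in single nuclei. It reads accessibility, not the transcript, so a level below is the openness of a gene and not its expression.

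The tissue came from male C57BL/6J mice that were 8 weeks old when treatment began. In the 7 groups, mice were left at room temperature (22 °C, day0RT), exposed to cold (6.5 °C in the labels) for 1, 3 or 7 days (day1C, day3C, day7C), or given CL-316,243 at 1 mg/kg for the same times (day1CL, day3CL, day7CL). CL-316,243 is an agonist of the β3-adrenergic receptor, through which cold also acts on adipocytes. Each group had 3 mice, 21 in all, which carried no engineered allele. The time of day at which tissue was taken is not given in the sources used here.

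The circadian clock is a feedback loop of transcription. CLOCK and ARNTL (also called BMAL1) pair up and activate genes at E-box sequences, among them the Per and Cry genes, whose protein products return to the nucleus and repress the pair. DBP and TEF carry the rhythm to other genes by activating at D-box sequences, where NFIL3 represses, and the nuclear receptors of the ROR and REV-ERB families set the rhythm of Arntl. Adipocytes have such a clock of their own, and many genes of lipid metabolism follow it.

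The matrix held a 1 wherever a nucleus had reads in a peak, 65588856 such entries over 32552 nuclei, so a count below is a number of nucleus and peak pairs. Within each mouse, the counts of all nuclei with the same annotation were added up, and levels are given as CPM, scaled to the gene counts of that library (for single peaks, to its peak entries). A mouse had 1111 to 2021 nuclei with a median of 657.5 to 2362 entries. The library of adipocytes (white and beige together) was smallest in day1CL replicate 1, with 29 nuclei. Of 28031 barcode sequences, 4218 occurred in at least 2 mice, always mice of the same treatment and replicate number on different days, and none in a day0RT mouse. Results are therefore also given below for the nuclei whose barcode occurred in 1 mouse only. The adipocyte clusters carried the adipocyte markers, with summed levels of 1829 CPM in white and 1717 CPM in beige adipocytes against 198 CPM in B cells. In the cluster annotated as VSMC, vascular smooth muscle, the skeletal muscle markers were at 790 CPM, the highest of the 12 clusters, and smooth muscle markers at 102 CPM, so that cluster is given by its annotation only. The smooth muscle markers were highest in APC2, annotated as a progenitor cluster, at 514 CPM. Its progenitor markers were at 321 CPM against 652 CPM in APC1, so APC2 is given by its annotation only as well.

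Several of the clock genes carry the clock's own binding letters where they start. The 250 bases before each RefSeq start were searched on both strands for the E-box CACGTG, the related E'-box CACGTT, the D-box TTATGTAA or TTACGTAA, the cAMP element TGACGTCA, and the ROR/REV-ERB element ANTAGGTCA or ANTGGGTCA. The RefSeq table had 14 starts for 9 of the members and none for Per2, which was not searched, and 7 of these starts had a motif. Over all 32851 promoters of the table, the E-box was in 6.02%, the E'-box in 3.85%, the D-box in 0.931%, the cAMP element in 1.55% and the ROR/REV-ERB element in 1.21%. Each of these shares is for 1 motif. The share of promoters with any of the motifs was not counted, so the 7 of 14 starts cannot be set against them. A match of letters is not evidence of binding. The sequences below show the promoter stretch that holds these letters at a start of each such gene. They run from 5′ to 3′ on the gene's own strand in GRCm38.p6 (the sequence of mm10), with the motifs in capitals. They are Per1 (chr11:69098699-69098947, + strand), Per3 (chr4:151044666-151044915, − strand), Cry1 (chr10:85185065-85185304, − strand), Cry2 (chr2:92434070-92434319, − strand), Tef (chr15:81802534-81802563, + strand) and Nfil3 (chr13:52981033-52981062, − strand).
Per1: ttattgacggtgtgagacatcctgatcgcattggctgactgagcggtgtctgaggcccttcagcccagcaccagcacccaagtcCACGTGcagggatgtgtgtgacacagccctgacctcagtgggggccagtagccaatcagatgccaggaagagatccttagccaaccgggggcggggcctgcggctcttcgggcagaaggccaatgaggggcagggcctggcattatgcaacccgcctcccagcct
Per3: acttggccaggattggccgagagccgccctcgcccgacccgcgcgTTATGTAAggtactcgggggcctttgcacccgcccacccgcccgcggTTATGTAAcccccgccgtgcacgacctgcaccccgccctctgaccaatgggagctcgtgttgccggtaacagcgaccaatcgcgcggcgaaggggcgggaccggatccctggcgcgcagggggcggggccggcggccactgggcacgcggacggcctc
Cry1: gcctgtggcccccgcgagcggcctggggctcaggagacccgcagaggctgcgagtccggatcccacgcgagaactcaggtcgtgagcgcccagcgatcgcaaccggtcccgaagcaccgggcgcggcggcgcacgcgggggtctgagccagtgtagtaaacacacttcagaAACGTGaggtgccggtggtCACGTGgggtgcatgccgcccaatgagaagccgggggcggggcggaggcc
Cry2: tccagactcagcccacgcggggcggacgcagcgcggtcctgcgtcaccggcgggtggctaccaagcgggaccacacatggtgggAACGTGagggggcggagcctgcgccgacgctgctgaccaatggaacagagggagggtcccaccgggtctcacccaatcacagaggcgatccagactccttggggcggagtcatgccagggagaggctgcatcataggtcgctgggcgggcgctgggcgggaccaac
Tef: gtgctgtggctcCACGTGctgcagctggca
Nfil3: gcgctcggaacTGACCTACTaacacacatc
The E-box began 166 bases before the start in Per1, 60 in Cry1 and 127 in Tef, the gene for an activator of D-boxes. Another Tef start, not shown, had an E-box that began 138 bases before it. The D-boxes of Per3 began 205 and 158 bases before its start, the E'-boxes of Cry1 and Cry2 at 79 and 166 bases, and the ROR/REV-ERB element of Nfil3 at 12 bases. None of these motifs was found before the RefSeq starts of Clock, Arntl or Dbp.

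Other sites lay in peaks inside the genes, and 18 of the 63 member peaks of at least 300 bases held a motif in their middle 300 bases. Over the 131912 peaks of that length in the whole set, the E-box was in 5.70%, the E'-box in 4.62%, the D-box in 2.19%, the cAMP element in 0.554% and the ROR/REV-ERB element in 2.24%. Here too the shares are for single motifs, and the share with any motif, the like of 18 of 63, was not counted. The middles of 5 peaks are shown on the gene's strand. Per1 peak 1 (chr11:69096985-69097284, + strand) has a cAMP element, Cry2 peak 6 (chr2:92423761-92424060, − strand) and Nfil3 peak 5 (chr13:52974703-52975002, − strand) have a pair of E-boxes each, and Per2 peak 7 (chr1:91437724-91438023, − strand) and Arntl peak 22 (chr7:113310314-113310613, + strand) have no motif but differed between beige and white adipocytes.
Per1 peak 1: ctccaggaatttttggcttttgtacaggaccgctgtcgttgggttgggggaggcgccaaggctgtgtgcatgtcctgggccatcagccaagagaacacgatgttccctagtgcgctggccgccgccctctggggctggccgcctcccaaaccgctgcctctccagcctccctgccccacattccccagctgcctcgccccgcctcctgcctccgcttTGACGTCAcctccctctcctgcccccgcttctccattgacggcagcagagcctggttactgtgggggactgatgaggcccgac
Cry2 peak 6: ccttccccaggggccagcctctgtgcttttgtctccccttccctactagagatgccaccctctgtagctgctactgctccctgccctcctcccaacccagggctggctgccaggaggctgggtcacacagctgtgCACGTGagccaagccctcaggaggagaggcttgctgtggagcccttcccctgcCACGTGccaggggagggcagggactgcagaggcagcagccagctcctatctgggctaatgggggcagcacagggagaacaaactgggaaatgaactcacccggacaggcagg
Nfil3 peak 5: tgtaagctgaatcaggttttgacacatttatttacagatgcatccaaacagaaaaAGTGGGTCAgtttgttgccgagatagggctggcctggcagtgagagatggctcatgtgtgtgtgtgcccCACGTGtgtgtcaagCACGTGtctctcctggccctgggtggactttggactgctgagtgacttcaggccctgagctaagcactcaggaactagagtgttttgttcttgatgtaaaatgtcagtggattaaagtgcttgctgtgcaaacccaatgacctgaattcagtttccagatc
Per2 peak 7: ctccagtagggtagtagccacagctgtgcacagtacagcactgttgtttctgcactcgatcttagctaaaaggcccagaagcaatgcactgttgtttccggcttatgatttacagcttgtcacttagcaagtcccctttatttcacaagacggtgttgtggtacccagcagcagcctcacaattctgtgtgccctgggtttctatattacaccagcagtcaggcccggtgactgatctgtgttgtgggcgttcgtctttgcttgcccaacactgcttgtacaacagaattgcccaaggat
Arntl peak 22: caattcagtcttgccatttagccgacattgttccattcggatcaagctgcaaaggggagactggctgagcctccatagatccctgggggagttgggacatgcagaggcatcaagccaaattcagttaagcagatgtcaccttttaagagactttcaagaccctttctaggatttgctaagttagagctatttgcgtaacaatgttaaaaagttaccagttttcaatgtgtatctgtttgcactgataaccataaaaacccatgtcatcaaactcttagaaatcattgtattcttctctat
All of these are in introns by the GENCODE gene annotation. Per1 peak 1 lies upstream of the RefSeq starts of Per1. The E-boxes began at positions 136 and 189 of the Cry2 stretch and at positions 125 and 140 of the Nfil3 stretch, counted from 1 at its 5′ end, and the Nfil3 stretch also held a ROR/REV-ERB element at position 56.

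The clock genes fell into different patterns over the 12 annotated cell types. Per2 and Tef were far more open in adipocytes than in each lymphocyte cluster. Cry2, Nfil3, Arntl and Per3 were also more open in adipocytes, by less in some or all of these clusters. Clock, Cry1, Per1 and Dbp were open in every cell type. The clusters were made by the authors from these same counts, so the levels are described without a test. Levels are means ± SD over mice with at least 10 nuclei of the type.

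**Figure D1:**
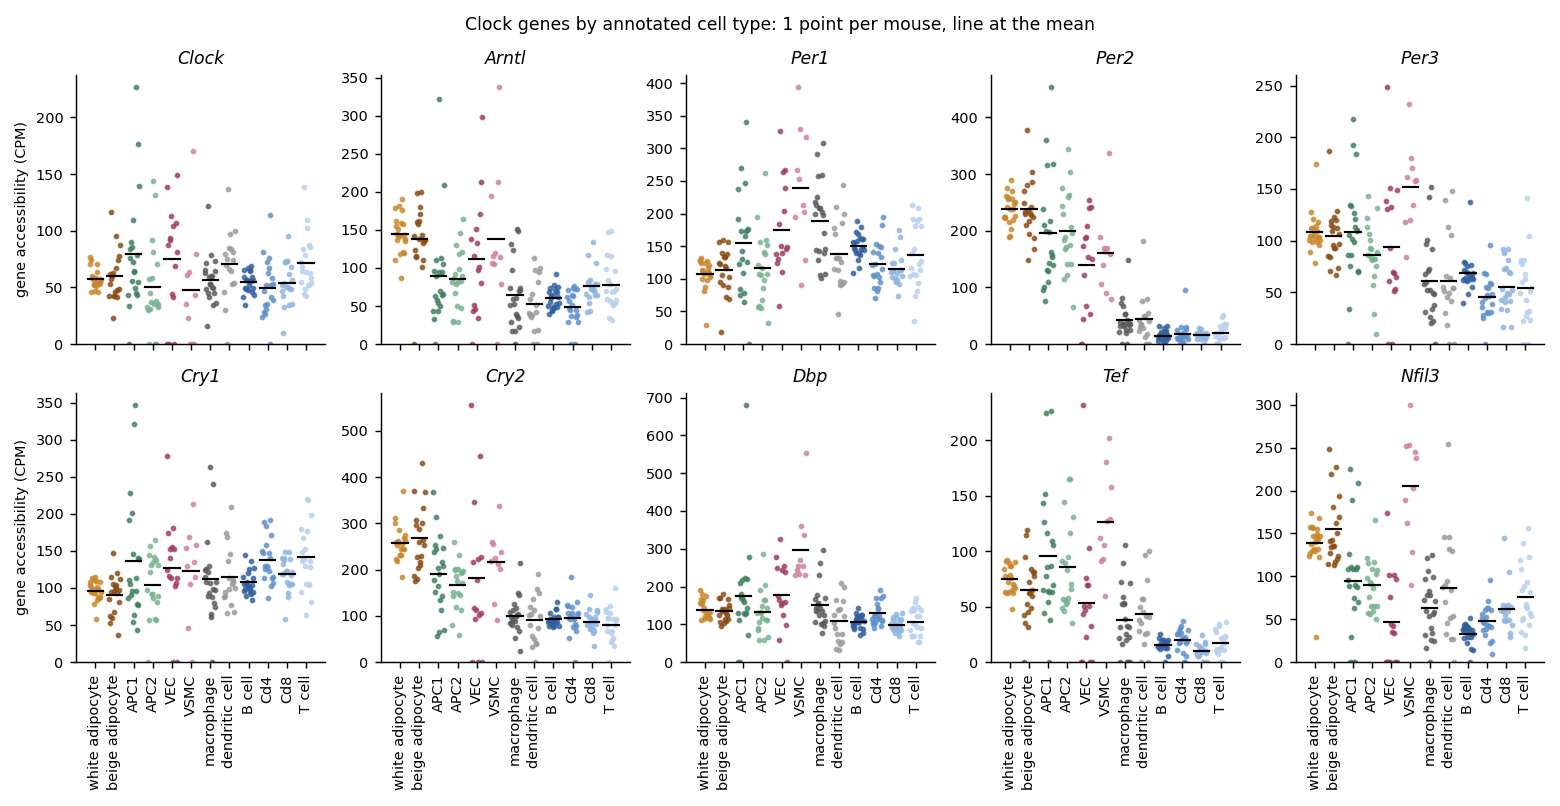
Accessibility of the 10 clock genes in each annotated cell type. Each panel is 1 gene, the y axis is the level in CPM of gene counts, each point is 1 mouse and each line the mean. Per2 is near 238 CPM in white and beige adipocytes and between 15.0 and 19.0 CPM in the 4 lymphocyte clusters, whereas Clock has overlapping points in every cluster.

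Of the activators, Clock (chr5:76209868-76304792, − strand), which encodes the partner of ARNTL, was at 57.8 ± 8.84 CPM in white adipocytes (n = 21) and at 54.3 ± 9.13 CPM in B cells (n = 21). Its means ran from 47.5 CPM in the cluster annotated as VSMC to 79.5 CPM in APC1, an adipocyte progenitor cluster, and no neighbours in that order differed by more than the larger SD. Arntl (chr7:113207465-113314126, + strand) was highest in white adipocytes, at 145 ± 25.5 CPM, next to the VSMC cluster at 139 ± 91.0 and beige adipocytes at 138 ± 43.7. B cells had 60.1 ± 13.3 CPM and Cd4 cells, the lowest, 48.5 ± 22.5. Within the same mouse, Arntl was higher in adipocytes than in B cells in 20 of 21 mice, by 2.42-fold in the means, and Clock in 15 of 21 mice, by 1.09-fold.

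The Per genes, repressors of the loop, did not share a pattern. Per2 (chr1:91415982-91459324, − strand) had the widest range of the 10 genes. It was at 238 ± 27.1 CPM in white and 238 ± 51.7 CPM in beige adipocytes, at 200 ± 70.2 and 195 ± 98.6 CPM in APC2 and APC1, both annotated as progenitors, and at 15.0 ± 8.65 CPM in B cells. The lowest adipocyte library had 192 CPM and the highest B cell library 32.5 CPM, so the cell types did not overlap, and the means differed by 15.8-fold. The break in its order fell between vascular endothelial cells (VEC, 139 ± 87.0 CPM) and dendritic cells (44.3 ± 41.9 CPM), a gap of 94.6 CPM that exceeded the larger SD and was in that direction in 9 of 11 mice with both.

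Per1 (chr11:69095217-69109960, + strand), which responds quickly to hormones and cAMP in many tissues, ran the other way in CPM. The share of counts near gene starts, given below, also differs between these cell types, and its part here was not tested. White adipocytes were its lowest cell type, at 108 ± 22.6 CPM, and B cells had 151 ± 19.4 CPM, higher than the adipocytes in 20 of 21 mice. The VSMC cluster was highest at 239 ± 92.6 CPM, and no neighbours in the order differed beyond their spread. Per3 (chr4:151003652-151044665, − strand) was at 108 ± 18.6 CPM in white adipocytes and 68.6 ± 18.3 CPM in B cells, and was higher in adipocytes in 20 of 21 mice. All 6 of its peaks also overlap Camta1, so the counts of the pair cannot be told apart.

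The Cry genes, whose products repress together with the PER proteins, also differed from each other. Cry2 (chr2:92403646-92434043, − strand) was at 268 ± 71.3 CPM in beige adipocytes and 258 ± 38.0 in white, against 92.7 ± 13.8 in B cells, and was higher in adipocytes in 21 of 21 mice. Its order broke between APC2 (167 ± 49.8) and macrophages (101 ± 38.4), where the gap of 66.2 CPM was beyond the larger SD and held in 16 of 19 mice. Cry1 (chr10:85131700-85185064, − strand) was lowest in the adipocytes, at 96.4 ± 13.4 CPM in white and 91.1 ± 26.3 in beige, and highest in T cells at 141 ± 43.0. Cry1 was higher in adipocytes than in B cells in 7 of 21 mice, by 0.901-fold in the means.

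Among the output genes, Dbp (chr7:45705088-45710203, + strand) was highest in the VSMC cluster, at 297 ± 101 CPM (n = 10). The next cell type, VEC, had 178 ± 87.8 CPM, a gap of 119 CPM that held in 8 of 9 mice, and white adipocytes had 139 ± 24.6 against 106 ± 18.0 in B cells. Tef (chr15:81802421-81826863, + strand) was at 75.0 ± 12.1 CPM in white adipocytes and 15.5 ± 5.54 in B cells, a 4.82-fold difference of the means for adipocytes and B cells that held in 21 of 21 mice. Nfil3 (chr13:52967209-52981073, − strand), which encodes the repressor at D-boxes, was at 138 ± 28.8 CPM in white adipocytes and 33.1 ± 12.03 in B cells, 4.22-fold apart and likewise in 21 of 21 mice. The VSMC cluster was the highest of the 12 for both, at 126 ± 43.6 CPM for Tef and 206 ± 64.3 CPM for Nfil3.

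The adipocyte markers were not at 0 in the lymphocyte libraries. In B cells they were at 10.8% of their white adipocyte level, and at 11.7% to 13.7% in the Cd8, T and Cd4 clusters. Per2, summed over its peaks, was at 6.30% in B cells and 6.62% to 7.99% in the other lymphocytes, below the share of the markers in each of the 4 clusters. Its peaks were unlike in this. Over the 4 clusters, peak 7 had a mean of 0.714 CPM of peak entries against 29.2 in white adipocytes. Peak 1 had 3.64 against 19.6 and peak 10 had 4.26 against 7.22. Whether the marker share is the background level for Per2 was not tested. Tef was at 20.7% in B cells and 12.9% in Cd8 cells, Nfil3 at 23.9% and Cry2 at 35.9% in B cells. In the T cell cluster Nfil3 was at 55.1% and Arntl at 53.9%. In Cd4 cells Cry2 was at 37.3% and Arntl at 33.4%.

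Levels were also divided by gene length with its upstream bases. Counts lie only in peaks, so this scale also depends on the part of a gene that is in peaks. That was 3970 bases of 96.9 kb for Clock and 1706 bases of 7.12 kb for Dbp. Per kilobase, the order in white adipocytes was led by Dbp at 19.5 CPM per kb. Nfil3 (8.72), Cry2 (7.96), Per1 (6.45) and Per2 (5.25 CPM per kb) followed, and the long genes Arntl (1.34) and Clock (0.596) closed it. In B cells Dbp was again first at 14.9 CPM per kb, followed by Per1 at 8.998, and Per2 was last at 0.331.

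Where in the gene the counts lay separated the cell types further. Counts were split into peaks within 2000 bases of the annotated start and the rest. Over all genes, 58.1% of gene counts lay near starts in B cells and 40.0% in white adipocytes (means over mice). Entries per nucleus were 1244 and 3741 on average. CPM does not correct for either, and their part in the differences below was not tested. The start of Cry2 had 87.1 ± 14.6 CPM in B cells against 59.7 ± 13.1 in white adipocytes. Its other peaks had 198 ± 34.4 CPM in white adipocytes and 5.64 ± 3.16 in B cells. Cry1 was alike, with 68.5 ± 9.23 CPM at the start and 27.9 ± 9.23 elsewhere in white adipocytes, and 103 ± 15.5 and 4.93 ± 3.04 CPM in B cells. Nfil3 had 62.7 ± 16.9 CPM at the start in white adipocytes and 31.4 ± 11.5 in B cells, but 75.6 ± 15.0 against 1.66 ± 2.52 CPM in the rest of the gene. Per2 was higher in white adipocytes in both parts, at 50.5 ± 13.7 against 3.98 ± 3.08 CPM near the start and 188 ± 23.9 against 11.03 ± 7.13 elsewhere. Tef and Per3 had most of their counts near the start in both cell types, with 73.6% and 86.9% in white adipocytes.

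**Figure D2:**
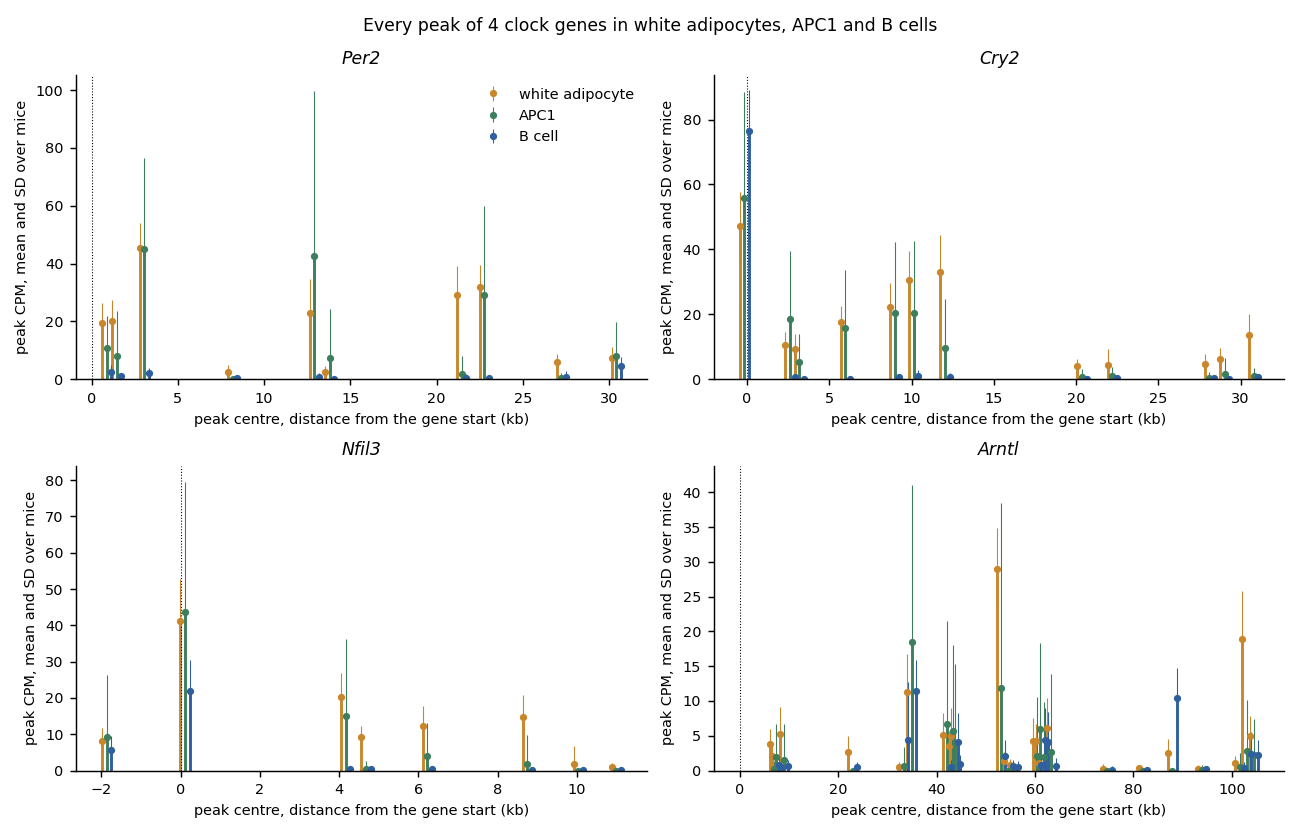
Peaks of Per2, Cry2, Nfil3 and Arntl placed by the distance of their centre from the annotated start (x axis, kb). The y axis is the level of each peak in CPM of peak entries, as mean and SD over mice, in white adipocytes, APC1 and B cells. At the start of Cry2 the B cells stand above the white adipocytes, 76.5 against 47.1 CPM, and at the peaks inside the gene they are near 0.

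Single peaks of some members show the same split. It does not hold for most member peaks near starts, whose median log2 ratio of white adipocytes over lymphocytes was 0.44 (peaks of at least 5 CPM in white adipocytes). The start peak of Cry2 was at 47.1 CPM in white adipocytes and 76.5 CPM in B cells, whereas the intronic Cry2 peak 6, shown above with its E-boxes, was at 30.5 against 0.979 CPM. In Per2, intronic peak 3 was at 45.3 against 2.04 CPM and peak 7 at 29.2 against 0.447 CPM. Nfil3 peak 3 was at 20.3 against 0.329 CPM, and the Cry1 start peak stood the other way, at 40.7 against 86.1 CPM. Arntl had no peak within 2000 bases of its annotated start. Its peak 10 was at 29.0 CPM in white adipocytes and 2.04 in B cells, while its exonic peak 19 was at 2.56 against 10.5 CPM. Per1 was opposite to Per2, with peaks 3 and 4, which hold its RefSeq starts, at 29.4 and 15.2 CPM in white adipocytes and 62.5 and 50.2 CPM in B cells.

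Away from gene starts the members were close to all genes, while near starts their median lay higher. Among peaks of at least 5 CPM in white adipocytes, 61.3% of the 31 member peaks away from the start (19 peaks) were over 4-fold above lymphocytes, against 63.9% of 25635 such peaks of all genes. The filter on white adipocytes kept 31 of 69 member peaks there and left out lymphocyte-high ones such as Arntl peak 19. It raises these shares, so they only set members beside all genes. Near gene starts it was 4 of 16 member peaks and 17.5% of 12426 peaks of all genes. The starts in this split are the GENCODE starts of any protein-coding gene. Cry2 peak 12, shared with Mapk8ip1, thus counted as near a start. Per1 peaks 3 and 4, which hold RefSeq starts, counted as away from it. The median log2 ratio was 2.39 for members and 2.35 for all genes away from the start, and 0.44 and −0.51 near it.

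The main comparison of the study, treated against day0RT, was next made in adipocytes, with all 7 groups in one fit. Clock was lower after CL treatment for 3 days and no other member passed in any of the 60 tests of a member (10 genes, 6 groups). At day 0, Clock was at 71.6, 70.2 and 72.8 CPM in the 3 mice. In cold it was at 53.2, 59.5 and 59.5 CPM on day 1, at 57.8, 48.7 and 51.4 on day 3, and at 44.9, 52.4 and 56.4 on day 7. With CL it was at 81.9, 56.2 and 75.7 CPM on day 1, at 52.5, 45.3 and 54.3 on day 3, and at 52.7, 60.3 and 64.0 on day 7. Thus 16 of the 18 treated mice lay below all 3 day0RT mice, and the 2 above them were day1CL mice, 1 of which had only 4 Clock counts. The share of all genes that are as one-sided against 3 day0RT mice was not counted. This count and those of other genes below therefore only describe the values.

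In edgeR's quasi-likelihood test, Clock fell by 0.53 on the log2 scale in day3CL (SE 0.16, adjusted p = 0.039 by Benjamini-Hochberg over 14429 genes). In that comparison 4.77% of all genes were called. The estimates of the other groups for Clock were −0.48 (SE 0.17, adjusted p = 0.096) in day7C, −0.39 (SE 0.16, adjusted p = 0.23) in day3C, −0.35 (SE 0.16, adjusted p = 0.18) in day7CL, −0.35 (SE 0.19, adjusted p = 0.54) in day1C and 0.02 in day1CL, and none passed. The day3CL call did not hold with DESeq2 (−0.51, adjusted p = 0.20), nor without any 1 of the day0RT mice (adjusted p = 0.071 to 0.195) or day3CL replicate 2 (−0.41, adjusted p = 0.28), nor with the replicate number as a block (−0.50, adjusted p = 0.058). It held in white adipocyte nuclei alone (−0.58, adjusted p = 0.023). In the nuclei whose barcode occurred in 1 mouse only (23813 of 32552) the estimate was −0.54 and its adjusted p 0.058, so the call was lost with nearly the same size. In a fit of day3CL and day0RT alone the call held (adjusted p = 0.048). The mice of that fit share no barcodes with each other. It kept the day3CL nuclei whose barcodes also occur in day1CL or day7CL mice, so it does not remove shared barcodes. Summed B cell markers in adipocytes were at 112 to 160 CPM in day0RT and 105 to 120 CPM in day3CL, and none was at 0. Their part in the difference was not tested.

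**Figure D3:**
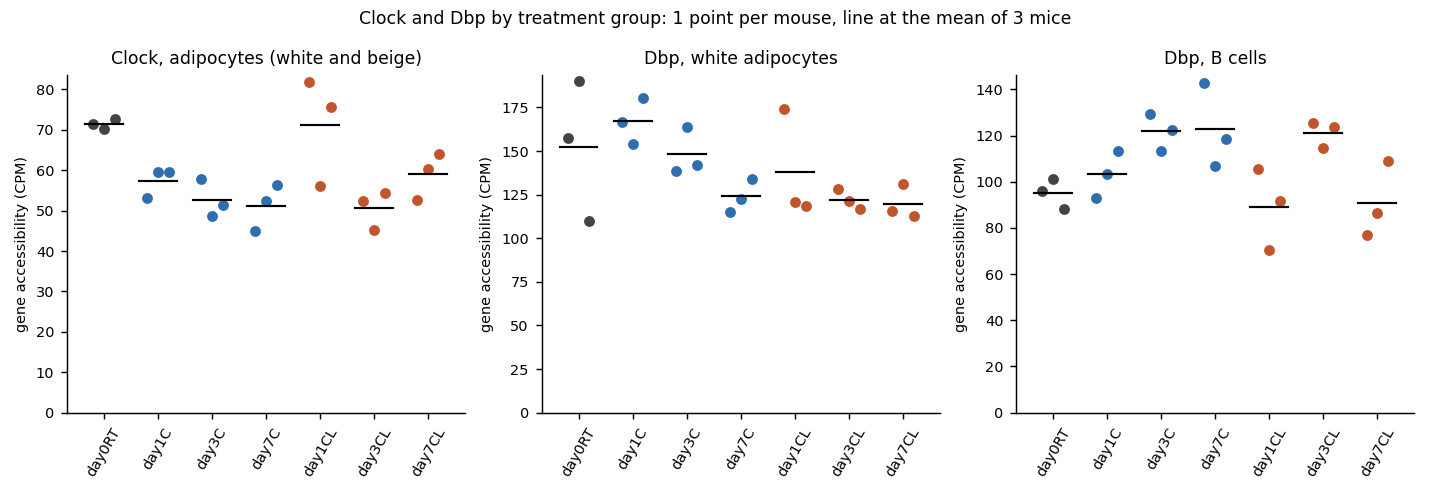
Clock in adipocytes and Dbp in white adipocytes and in B cells, by treatment group. The y axis is the level in CPM of gene counts, each point is 1 mouse and each line the mean of 3 mice. The day0RT mice of Clock sit at 70.2 to 72.8 CPM with 16 of the 18 treated mice below them, and Dbp in B cells is at 113 to 129 CPM in day3C against 88.3 to 101 CPM in day0RT.

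The share of all genes called against day0RT in adipocytes was 0.34% in day1C, 1.68% in day3C, 5.08% in day7C, 2.61% in day1CL, 4.77% in day3CL and 7.81% in day7CL. At an unadjusted p under 0.05, Clock was the 1 member in each of day3C, day7C, day3CL and day7CL and there was none on day 1. DESeq2 called 0 members. The median log2 difference of the 10 members was 0.05, 0.03 and −0.10 in cold on days 1, 3 and 7 and −0.07, −0.10 and −0.02 with CL, where the median of all genes lay between −0.01 and 0.00.

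Per1 was the other member whose treated mice lay mostly on one side. Its adipocyte level was 125 to 133 CPM in day0RT and 61.4 to 128 CPM, with a median of 110, in the treated mice, 17 of which were below all day0RT mice. As for Clock, the share of all genes with such a count is not known. Its log2 estimates ran from −0.32 to −0.14 and no adjusted p was under 0.327, so the difference did not pass in edgeR. Per2 was at 223 to 231 CPM in day0RT and 192 to 268 CPM in the treated mice, 12 of 18 above all day0RT mice, with estimates between −0.09 and 0.20. The day0RT mice of Dbp, at 110 to 186 CPM, spanned all 18 treated mice (111 to 177 CPM). Arntl, Cry1, Cry2, Per3, Tef and Nfil3 had estimates from −0.20 to 0.29, none of which passed.

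**Figure D4:**
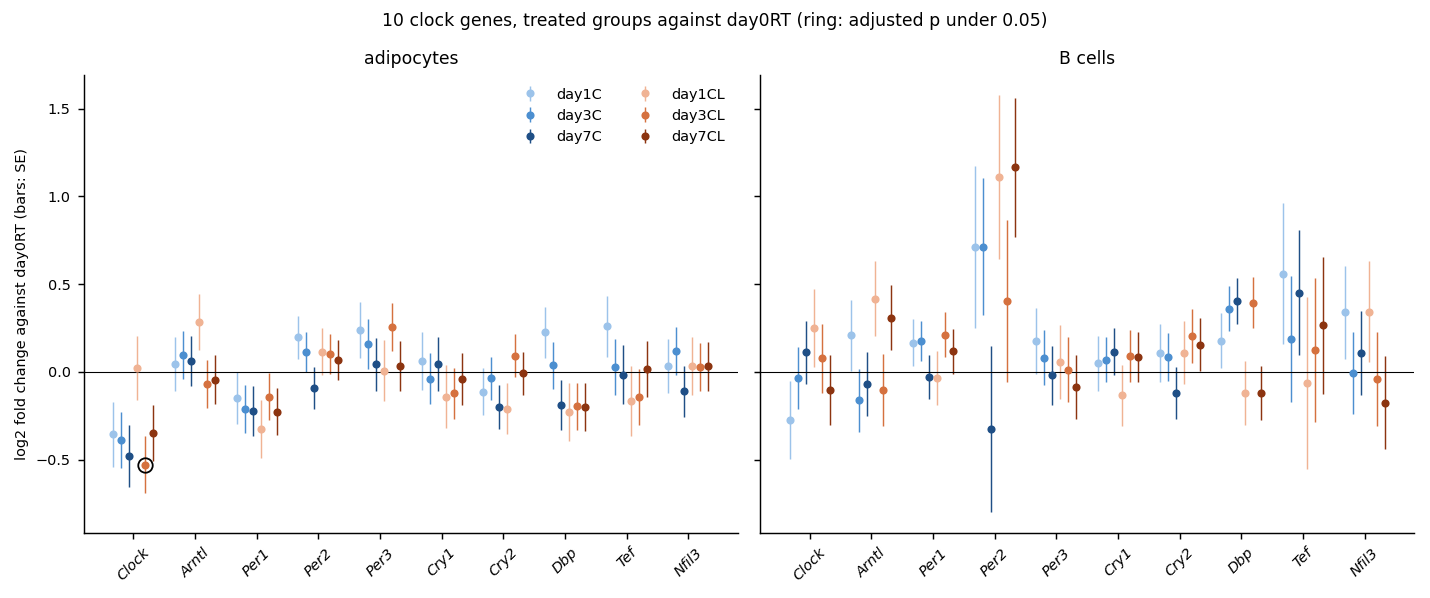
Log2 difference of each clock gene between a treated group and day0RT, in adipocytes and in B cells. The x axis holds the genes and the y axis is the log2 difference. Points are the edgeR estimates, bars are 1 SE, and a ring marks an adjusted p under 0.05. The single ring is Clock in adipocytes in day3CL at −0.53, and the largest estimates without a ring are those of Per2 in B cells, 1.11 in day1CL and 1.17 in day7CL.

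CL and cold were also compared on the same day in adipocytes. Of the 30 tests of a member, edgeR called 0 and DESeq2 called 0, against 0.922% of all genes on day 1, 1.46% on day 3 and 0.111% on day 7. At an unadjusted p under 0.05 there were 3 members on day 1 (Clock, Dbp and Tef), 1 on day 3 (Dbp) and 0 on day 7. For Dbp, the log2 estimate of day1CL against day1C was −0.45 (SE 0.16, adjusted p = 0.157 in edgeR). Clock had 0.38 and Tef −0.43 on that day.

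In B cells, the most numerous nuclei outside the adipocytes, edgeR called 0 of 60 member tests against day0RT and DESeq2 called 0. The share of all genes called was 0.574% in day1C, 0.0% in day3C, 0.0174% in day7C, 2.68% in day1CL, 0.0% in day3CL and 1.36% in day7CL. At an unadjusted p under 0.05 there was 1 member in each of day3C, day7C, day1CL, day3CL and day7CL. These were Dbp, at 0.36, 0.40 and 0.40 in day3C, day7C and day3CL, and Per2, at 1.11 (SE 0.47) in day1CL and 1.17 (SE 0.40) in day7CL, on the log2 scale. The Per2 values rest on low levels, 0 to 32.5 CPM in the treated mice and 5.15 to 15.3 CPM in day0RT. Clock, the gene called in adipocytes, had estimates from −0.27 to 0.25 in B cells. The difference between the cell types was not tested.

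A test for any difference among the 7 groups within a cell type called Dbp in B cells (adjusted p = 0.00979, edgeR) and Dbp in white adipocytes (adjusted p = 0.0417). In B cells Dbp, an activator of D-box genes that is among the most rhythmic clock outputs, was at 95.9, 101 and 88.3 CPM in day0RT. In cold it was at 93.1, 103 and 113 CPM on day 1, at 129, 113 and 123 on day 3, and at 143, 107 and 119 on day 7. With CL it was at 106, 70.5 and 91.5 CPM on day 1, at 125, 115 and 124 on day 3, and at 76.97, 86.6 and 109 on day 7. All mice of day3C, day7C and day3CL thus lay above all 3 day0RT mice, and those of the other groups overlapped with day0RT. How many of all genes part the groups in this way was not counted, here or in white adipocytes.

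White adipocytes had another order of groups. Their Dbp level was 158, 190 and 110 CPM in day0RT, 167, 154 and 181 in day1C, 138, 164 and 142 in day3C, and 115, 123 and 134 in day7C. With CL it was 174, 121 and 118 CPM on day 1, 128, 121 and 117 on day 3, and 116, 131 and 113 on day 7. The first of the day1CL values came from 23 nuclei. The day1C mice were above all mice of day7C and of the day 3 and day 7 CL groups, while the range of the day0RT mice held all 18 treated mice.

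Both Dbp calls depended on the mice and the method. In B cells the call was lost without day7CL replicate 1 (adjusted p = 0.0749) and held without any other single mouse. In white adipocytes the adjusted p ran from 0.00898 to 0.137 as each mouse was left out. The call was lost without day1C replicate 1 (0.136), 2 (0.054) or 3 (0.137), day3C replicate 2 (0.055), day7C replicate 2 (0.051), day1CL replicate 3 (0.065), day3CL replicate 2 (0.071) or 3 (0.075), or day7CL replicate 1 (0.080). DESeq2 gave adjusted p = 0.23 in white adipocytes and 0.77 in B cells. Of the 4 Dbp peaks, 1 is shared with another gene. With peaks of 1 gene only, edgeR gave adjusted p = 0.024 in white adipocytes and 0.047 in B cells, and both calls held. In the nuclei with a barcode of 1 mouse only, adjusted p was 0.23 in white adipocytes and 0.10 in B cells, and neither call was made.

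These counts have to be read against all genes. In white adipocytes 1 of 10 members was called with 10.8% of all genes, and in B cells 1 of 10 with 2.08%. Clock had an adjusted p of 0.076 in white adipocytes and Per2 of 0.098 in B cells. In the other 6 cell types with enough mice edgeR called 0 members, of 8 tested in each of Cd4, Cd8 and T cells, 5 in macrophages and APC1 and 4 in APC2. All genes there were called at 0.052%, 0.125%, 0.0172%, 0.0%, 0.0% and 0.0991%, and at an unadjusted p under 0.05 there were 1, 2, 1, 0, 0 and 0 members. DESeq2 called 0 members in each of these cell types.

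At single peaks, 3 of the 42 member peaks tested in adipocytes differed among the 7 groups in edgeR, with 10.7% of all peaks called. The start peak of Clock (peak 2, chr5:76303571-76305423, adjusted p = 0.018) was at 51.5, 44.7 and 41.1 CPM of peak entries in day0RT. It was at 31.0, 36.0 and 37.1 in day1C, at 35.5, 32.5 and 29.7 in day3C, and at 28.6, 35.3 and 31.8 in day7C. With CL it was at 32.1, 35.3 and 45.7 on day 1, at 31.3, 23.0 and 30.3 on day 3, and at 27.95, 29.9 and 40.3 on day 7. All mice but 1 of day1CL were below all day0RT mice. This peak holds most counts of the gene (31 of 35 in day0RT replicate 1), so it is not separate from the whole-gene result. For this and the next 2 peaks, the share of all peaks with groups set apart in this way was not counted.

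The intronic Per2 peak 1 (chr1:91458215-91458666, adjusted p = 0.035) has its centre 884 bases inside the gene start. It was at 4.99, 16.7 and 14.6 CPM in day0RT, from 3, 6 and 16 counts. In day1C it was at 17.6, 30.0 and 34.2, from 21, 15 and 23 counts, with no overlap between these groups. It was at 25.0, 21.7 and 20.1 in day3C, 15.1, 10.6 and 19.3 in day7C, and 13.2 to 29.6 in the CL mice. Cry2 peak 12 (chr2:92402769-92403705, adjusted p = 0.021), at the far end of the gene and shared with Mapk8ip1, was at 0, 4.42 and 6.77 CPM in day1CL, below all other mice. These day1CL values rest on 0, 1 and 12 counts. The peak was at 33.0, 18.7 and 16.2 CPM in day3CL and 8.37 to 16.4 CPM in day0RT. With the replicate number as a block the Clock peak was no longer called (adjusted p = 0.057), and the Per2 and Cry2 peaks were. DESeq2 called 0 of these peaks, and without day1CL replicate 1 edgeR called 4 member peaks, these 3 among them. In the nuclei with a barcode of 1 mouse only it called 1, Per2 peak 1 (adjusted p = 0.031), and gave 0.197 for the Clock peak and 0.062 for the Cry2 peak.

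Beige and white adipocytes of the same 19 mice differed little in clock genes. No member was called by edgeR with the mouse as a block (0 of 10, unadjusted p under 0.05 in 0, DESeq2 0), while 30.4% of all genes were. The log2 estimates of beige over white ran from −0.18 for Tef to 0.12 for Clock, with SE from 0.065 to 0.11 and no adjusted p under 0.197. The clusters come from the same counts, so the comparison is not independent of them. The beige markers summed to 1076 CPM in the beige nuclei and to 621 CPM in the white.

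**Figure D5:**
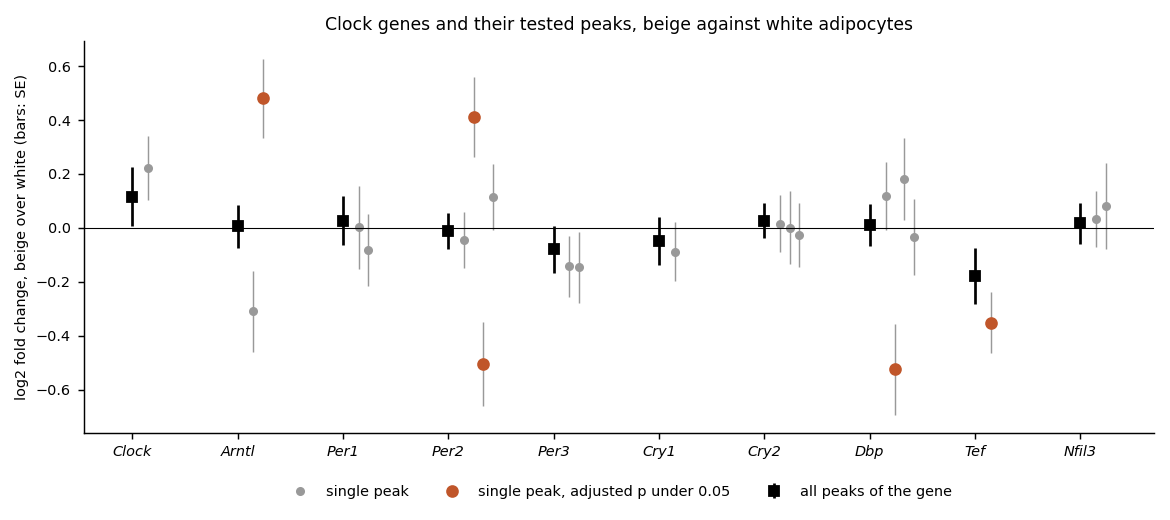
Log2 difference of beige over white adipocytes for the 10 clock genes (squares) and their 22 tested peaks (circles), over 19 mice. The x axis holds the genes and the y axis is the log2 difference with bars of 1 SE. The 5 peaks called at an adjusted p under 0.05 are coloured. The genes lie between −0.18 and 0.12, and the called peaks lie on both sides, from −0.52 in Dbp to 0.48 in Arntl.

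Single peaks within these genes did differ, in both directions. Of 22 member peaks tested edgeR called 5, 2 higher and 3 lower in beige, with 16.0% of all peaks called. Without the filter on low counts 22 member peaks were called, beside 40067 of 189541 peaks in all, of which 34843 were lower in beige, and with nuclei of at least 2000 entries 1 was called. In Per2, intronic peak 7 was lower in beige (19.7 against 27.2 CPM of peak entries, log2 −0.50, adjusted p = 0.013, lower in 14 of 19 mice). Peak 5 of the same gene was higher (27.98 against 21.4 CPM, log2 0.41, adjusted p = 0.040, higher in 12 of 19 mice). The Tef start peak was lower in beige (32.05 against 43.1 CPM, log2 −0.35, adjusted p = 0.032, in 12 of 19 mice), as was Dbp peak 2 (17.5 against 25.2 CPM, log2 −0.52, adjusted p = 0.019, in 15 of 19 mice). Arntl peak 22, near the end of the gene, was higher (31.1 against 19.0 CPM, log2 0.48, adjusted p = 0.012, in 15 of 19 mice). In nuclei with a barcode of 1 mouse only, 0 of the 5 was called, with the Tef start peak at −0.31 (adjusted p = 0.22) and the other 4 below the filter on low counts.

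Whether the level of a clock gene moved together in adipocytes and B cells of the same mouse was asked over the 21 mice. Pearson's r of the log2 levels lay between −0.15 for Arntl and 0.37 for Cry1, whose permutation p was 0.102. Spearman's rho lay between −0.11 for Nfil3 and 0.32 for Cry1. After adjustment over the 10 genes no p was under 0.618, and Pearson's count stayed at 0 with deviations from the group means. In nuclei with at least 2000 entries, over 19 mice, Spearman's rho of Tef was −0.63 (adjusted permutation p = 0.0452), where it was 0.15 over all nuclei, and Pearson's r of Tef was −0.39 (adjusted permutation p = 0.480).

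The other genes of the clock were counted as a list of 22, of which 21 had a peak. In adipocytes against day0RT edgeR called 1 of 21 in day7CL, where 7.81% of all genes were called, and 0 in the other groups. The 1 was Bhlhe40, whose product represses the CLOCK and ARNTL pair, at 0.74 on the log2 scale (SE 0.23, adjusted p = 0.034). In the test among groups in white adipocytes edgeR called 2 of 21, Bhlhe40 among them (adjusted p = 0.0037), where 10.8% of all genes were called. Whether the Bhlhe40 calls held in the alternative settings is not given here. In beige against white adipocytes edgeR called 3 of 20, where 30.4% of all genes were called, with Nampt, an enzyme of NAD synthesis, at 0.40 (adjusted p = 0.0041), the kinase gene Csnk1d at 0.29 (0.038) and Rora at −0.15 (0.015). In B cells it called 0 of 16 in any group, where at most 2.68% of all genes were called.

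Nuclear receptors that act on Arntl and Nfil3 were more open in white adipocytes than in B cells. Nr1d1, which encodes REV-ERBα, was at 169 against 104 CPM and Nr1d2 at 29.7 against 5.07 CPM. Rora was at 771 against 127 CPM and Rorb at 29.5 against 1.90 CPM. Such differences are common among all genes. Of all genes' peaks away from starts with at least 5 CPM in white adipocytes, 63.9% were over 4-fold above lymphocytes. The share of counts near starts and the depth also differ between these cell types, and their part here was not tested. Neither Nr1d1 nor Nr1d2 was called in any treated group, with Nr1d1 at −0.29 in day7CL (adjusted p = 0.15).

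The genes whose mean levels over the 12 cell types were most like those of a member were found by Pearson's r, as a description over 12 points that share libraries and depth. They were Ptprg (0.981) and Zfp503 (0.977) for Per2, Grb14 (0.988) and Hnmt (0.977) for Cry2, Ip6k3 (0.966) and Ntng1 (0.947) for Tef, and Ntng2 (0.941) and Sil1 (0.930) for Nfil3. Per3 was most like Trp53inp2 (0.956) and Tlcd2 (0.953), and Clock like Lrrc8d (0.967) and Anapc7 (0.941). Rtn3 (0.917) and Il17re (0.885) came first for Arntl, Akap13 (0.947) and Stxbp5 (0.930) for Cry1, Trim37 (0.898) and Mlxip (0.877) for Per1, and Rpl3l (0.898) and Gapdh (0.885) for Dbp. None of them shared a peak with its member. Between members, the closest pairs were Per3 and Cry2 (0.914) and Per2 and Tef (0.905), and the most opposed was Clock and Dbp (−0.77).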

How the data were processed

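Nuclei of inguinal adipose tissue were profiled by snATAC-seq in 21 mice (7 groups of 3). The 4 deposited samples are lanes that each hold all mice, so mouse, group and cell type were taken from the deposited table of nuclei. Per the study's methods, the authors aligned reads to mm10 with Bowtie2, removed reads of low mapping quality, duplicates and mitochondrial reads, removed nuclei of low depth and likely doublets by a Scrublet score, called peaks with MACS2 per initial cluster over all mice, and clustered and annotated nuclei with Signac. The deposited counts are binary, 1 where a nucleus has reads in a peak, with 145 stored zeros and no value above 1. Since the deposited counts are capped at 1, large peaks in deep nuclei are understated.

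Here entries were summed per mouse and cell type with at least 10 nuclei, over peaks that overlap a GENCODE protein-coding gene or its 2000 upstream bases (17196 genes), and also per peak. A peak that overlaps several genes counted for each. Tests used edgeR 4.0.16 (quasi-likelihood, TMM, filterByExpr with a minimum count of 10, R 4.3.3) and Benjamini-Hochberg adjustment over all genes or peaks of a comparison, with a threshold of 0.05. The fits held all 7 groups, or cell type with the mouse as a block for beige against white. The scripts were tested on simulated counts. Correlations over mice used log2(CPM + 1) and 100000 permutations (two-sided, scipy 1.17.1). The study states 3 independent batches without saying which mice each held, so replicate numbers were not taken as pairs; same-numbered mice did not deviate together.

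Alternatives were DESeq2 1.42.0, no filter, promoter peaks only, peaks of 1 gene only, nuclei with at least 2000 entries, a replicate block, white nuclei alone, the 2 compared groups alone, at least 30 nuclei per library, the treatment group in place of the mouse as the block, and each mouse left out. Leaving out single mice in the test among groups, and the restriction to barcodes of 1 mouse, were chosen after seeing the data. The members and lists were chosen with earlier results of these data known. All 10 members are named, with their start peaks and every peak past the threshold. Of 22 other clock genes, those past the threshold and nuclear receptors are named, except 1 gene that is not reported here, and for each member the 2 most alike genes over the 12 cell types with a mean of at least 20 CPM. Library sizes limit precision: adipocyte libraries held 48868 to 3354348 gene counts. p-values measure the spread between these mice.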

Additional observations from a re-analysis of the deposited data

Results flagged for a closer look

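Bhlhe40, a clock gene outside the 10 members whose product represses the CLOCK and ARNTL pair, differed between CL and cold on day 3 in adipocytes. Its estimate for day3CL against day3C was −0.64 on the log2 scale (SE 0.16, adjusted p = 0.017, edgeR over 14429 genes), a test of the difference between both treatments. The day3C mice were at 46.2, 47.2 and 25.7 CPM and the day3CL mice at 39.4, 27.1 and 22.9 CPM, so the groups overlapped. The day0RT mice were at 26.6, 28.1 and 25.4 CPM. The adjusted p does not rest on an ordering of all mice, and the libraries weigh unequally in the fit: the day3C mice had 155, 31 and 23 counts of Bhlhe40 and the day3CL mice 18, 79 and 41. Fits without single mice were run for this contrast, but their values for Bhlhe40 are not given here.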

How the results depend on the processing

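Clock in day3CL, the 1 member gene called with a direction, kept its sign in every setting that called it. Some correlations over mice changed sign. Spearman's rho of Tef was 0.15 over all nuclei and −0.63 with nuclei of at least 2000 entries. Pearson's r of Tef went from 0.20 to −0.39, and that of Per1 and Clock also changed sign in some settings. In adipocytes against day0RT, 1 member test was called. The count was 0 with DESeq2, with nuclei of at least 2000 entries, with the replicate block and with barcodes of 1 mouse only. Without single mice it was 0 to 1. Promoter peaks alone also gave 1 call, but of Per2 in day7CL (0.73, adjusted p = 0.034) and not of Clock. The replicate block gave Clock −0.50 in day3CL (adjusted p = 0.058). Same-numbered mice did not deviate together (correlations of −0.12 to 0.12 in adipocytes and −0.099 to 0.089 in B cells, 63 pairs each), so numbers were not taken as pairs, and the block changed no other member count by over 1.5 times, though the Clock start peak lost its call among groups (adjusted p = 0.057). In B cells against day0RT, promoter peaks alone called 1 (Dbp in day7C, 0.70, adjusted p = 0.048) in place of 0. Among groups within cell types, 2 were called, 0 with DESeq2, nuclei of at least 2000 entries or barcodes of 1 mouse, 1 with promoter peaks alone, and 0 to 3 without single mice. Beige against white, promoter peaks alone called 1 (Tef, −0.36, adjusted p = 0.037) in place of 0. Of member peaks, 5 were called there, 22 without the filter on low counts, 1 with nuclei of at least 2000 entries and 0 with barcodes of 1 mouse. Among groups, 3 peaks were called, 0 without the filter or with DESeq2, 1 with barcodes of 1 mouse and 4 without day1CL replicate 1. Fewer nuclei and more features tested are part of these settings, and the causes were not tested further. DESeq2 also called fewer of all genes, for example 278 in place of 1127 in day7CL. CL against cold and Pearson's correlations over mice stayed at 0 calls under the alternatives run for them, while Spearman's rho called Tef with nuclei of at least 2000 entries (−0.63, adjusted permutation p = 0.0452, 19 mice). Depth limits all of this: Clock had 4 to 194 counts in an adipocyte library.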
